A study of Mus musculus with 8 samples.

Results

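MicroRNA genes of the mouse autosomes were examined for 5-hydroxymethylcytosine (5-hmC) in pro-B cells, and were divided by whether they lay inside or outside the body of a protein-coding gene. The GENCODE annotation of mouse GRCm38 holds 2054 genes of type miRNA on chromosomes 1 to 19, among 51229 genes of all types. Of these, 1215 lay wholly inside a protein-coding gene body, 829 lay outside any and 10 crossed a gene border and were left out of both classes. Each gene was widened by 2000 bp on each side, which gave a window of 4090 bp at the median. The 5-hmC peaks and the bases under peaks were then counted in every window.

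The peak lists came from hMeDIP-seq, in which sonicated genomic DNA is pulled down with an antibody against 5-hmC and sequenced. Progenitor B cells (pro-B, sorted as B220+CD43+IgM- from bone marrow) were taken from C57BL/6 mice of 4 to 6 weeks. HDAC7-deficient animals were Hdac7 fl/- with mb1-Cre, a Cre recombinase in the Cd79a locus that acts in the B lineage, and the group called wild-type were their Hdac7 +/- littermates, so that both groups carried at least 1 null allele. There were 2 libraries of each genotype. Whether the controls carried Cre, and whether the libraries came from separate animals, was not given in the sources used here, so p-values measure only the spread between these libraries. The peak lists hold positions alone, so the loss of Hdac7 and the purity of the sorted cells could not be checked in them and the sequencing depth is unknown.

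MicroRNAs are cut from the stem of an RNA hairpin and guide silencing complexes to messenger RNAs that match their seed, bases 2 to 8 of the mature strand. A gene inside a coding gene and on its strand is often transcribed as a part of the host transcript, whereas a gene outside needs a transcript of its own, commonly a long noncoding RNA. Several hairpins may be cut from 1 primary transcript, and such clusters have often been duplicated, so that 1 mature miRNA can be made from several places in the genome. The mark 5-hmC is made from 5-methylcytosine by the TET dioxygenases, is found mainly at CpG sites, and in many cell types lies over gene bodies and active enhancers. In early B cells, miR-181, miR-150, miR-155, the miR-17-92 cluster and miR-142 are among the best studied miRNAs.

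The mature sequences below are those whose loci carry the comparisons between duplicated genes. They were taken from RefSeq (GRCm38.p6), are written 5′ to 3′ and have the seed in capitals. Of the 2054 genes, 930 matched a mature entry by position and strand, 634 inside and 293 outside. The seed ACAUUCA is shared by the miR-181 family, made at 3 loci.
miR-181a-5p (from both Mir181a-1 and Mir181a-2): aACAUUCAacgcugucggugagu
miR-181b-5p (from both Mir181b-1 and Mir181b-2): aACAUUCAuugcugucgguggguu
The seed AGCAGCA is shared by miR-15 and miR-16, and miR-16-5p is made both outside (Mir16-1) and inside a coding gene (Mir16-2).
miR-15a-5p: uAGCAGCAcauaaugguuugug
miR-15b-5p: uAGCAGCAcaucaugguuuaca
miR-16-5p: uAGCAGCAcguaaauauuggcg
The seed AGCACCA is shared by miR-29, and miR-29b-3p is likewise made both outside (Mir29b-1) and inside (Mir29b-2).
miR-29a-3p: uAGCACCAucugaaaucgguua
miR-29b-3p: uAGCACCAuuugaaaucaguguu
miR-29c-3p: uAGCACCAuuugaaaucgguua
The miR-99, let-7 and miR-125 trio was duplicated as a unit, with the seed ACCCGUA, the seed GAGGUAG and the seed CCCUGAG in each copy.
miR-99a-5p: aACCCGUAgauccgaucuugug
miR-99b-5p: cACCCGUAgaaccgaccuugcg
let-7c-5p: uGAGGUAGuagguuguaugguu
let-7e-5p: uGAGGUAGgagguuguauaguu
miR-125a-5p: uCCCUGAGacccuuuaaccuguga
miR-125b-5p (from both Mir125b-1 and Mir125b-2): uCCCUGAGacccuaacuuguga
The proliferation-linked miR-17 and miR-106b clusters share the seed AAAGUGC, and 2 blood miRNAs of single loci are shown for reference.
miR-17-5p: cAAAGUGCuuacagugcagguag
miR-93-5p: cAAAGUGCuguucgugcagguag
miR-106b-5p: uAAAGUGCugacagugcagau
miR-142a-3p: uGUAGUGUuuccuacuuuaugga
miR-155-5p: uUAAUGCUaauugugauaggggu

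The inside class held 759 genes with a Mir symbol and 456 with another symbol, mostly predicted genes named Gm. They lay in 987 host genes, 921 on the strand of the host and 294 on the opposite strand. By host part, 893 overlapped introns alone, 178 touched a coding exon, 93 a UTR and 51 a noncoding exon. The outside class held 322 genes with a Mir symbol and 507 with another, and 168 of the 829 lay in a long noncoding RNA gene. Inside windows held 15.9 CpG per kb against 9.98 in the rest of coding gene bodies, and outside windows held 11.1 against 7.44. Soft-masked repeats made up 22.0% of the inside and 33.9% of the outside window bases.

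Wild-type peaks covered 9.41% and 10.8% of the known autosomal bases and HDAC7-deficient peaks 9.30% and 10.6%. HDAC7-deficient replicate 2 stood apart on chromosomes 14 to 19, where peaks covered 12% of the sequence against 10.2% on chromosomes 1 to 13, while no other library differed by more than a few hundredths of a percentage point. On those chromosomes its outside windows stood at 12% and its inside windows at 11.6%, against 9.90% and 9.59% on chromosomes 1 to 13. Over the miRNA windows the first replicates of the 2 genotypes were the most alike in peak bases (Pearson's r = 0.69 across the 2054 genes), and both pairs of the same genotype lay lower (r = 0.54 in wild-type and r = 0.55 in HDAC7-deficient). This is a description across genes, neighbouring windows of which share bases. In what follows, values for each library are given in the order wild-type 1, wild-type 2, HDAC7-deficient 1 and HDAC7-deficient 2.

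5-hmC peaks lay about as densely at miRNA genes as in the sequence around them. Inside windows were under peaks for 9.93%, 11.3%, 9.63% and 10.1% of their bases, and the rest of coding gene bodies for 9.42%, 10.8%, 9.26% and 10.4%. The first 3 libraries were thus higher at the miRNA genes and the fourth was lower. Outside windows were covered for 9.59%, 10.5%, 9.33% and 10.3%, against 9.40%, 10.8%, 9.34% and 10.7% in the rest of the sequence outside coding genes. The rest of each class was cut at the borders of coding genes, but the windows were not. Inside windows can thus reach beyond a coding gene, and outside windows into one. The ratio of inside to outside density was 1.03 ± 0.041 (SD, n = 4 libraries), above 1 in 3 of 4 libraries (two-sided exact sign-flip permutation test, p = 0.25, where 4 libraries cannot give less than 0.125). With 500 bp on each side the direction turned, to 0.910 ± 0.042, below 1 in 4 of 4 libraries (exact sign-flip permutation p = 0.125). Against all coding gene bodies the inside windows gave 1.03 ± 0.042 (exact sign-flip permutation p = 0.25) and 0.913 with 500 bp, and outside windows gave 0.990 ± 0.025 against all sequence outside coding genes (exact sign-flip permutation p = 0.375). Set against the rest of their own 987 host genes the inside windows gave 1.04 ± 0.049, again with HDAC7-deficient replicate 2 alone below 1.

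**Figure D1:**
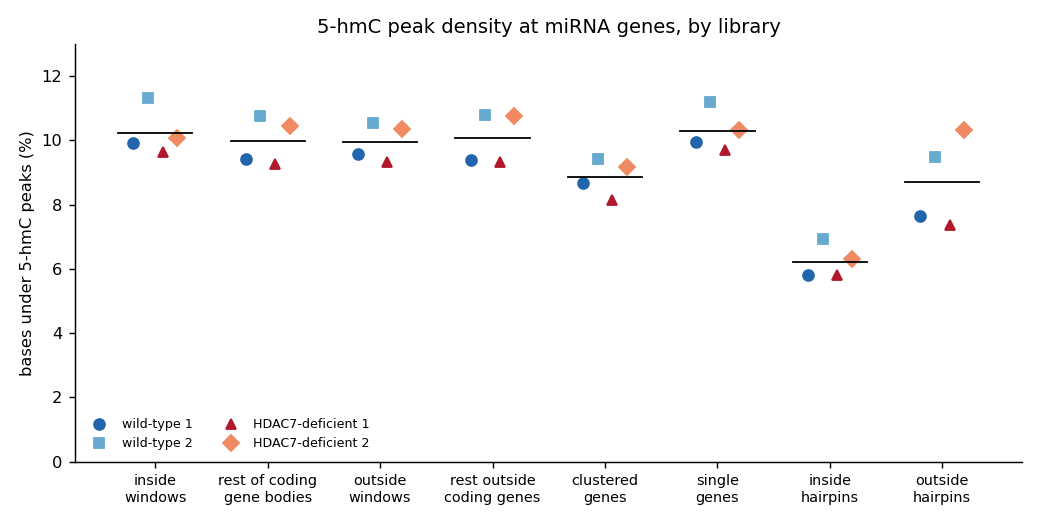
Percent of bases under 5-hmC peaks (vertical axis) in each of the 4 libraries, for miRNA gene windows, the sequence around them, clustered and single genes, and the hairpins alone. Points are libraries and bars are the mean of 4. Windows and their surroundings sit together between 9.26% and 11.3%, clustered genes lie below single genes in every library, and the inside hairpins lie lowest, at 5.80% to 6.93%.

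Almost every miRNA gene had a peak nearby in at least 1 library. In the 4 libraries 1005, 1021, 1040 and 981 of the 1215 inside genes, and 702, 714, 707 and 721 of the 829 outside genes, had a peak in their window. These were 82.7%, 84.0%, 85.6% and 80.7% of the inside genes, against 86.6%, 88.2%, 88.3% and 86.4% of all tiles of the median window length inside coding genes. Outside, 84.7%, 86.1%, 85.3% and 87.0% of the genes had a peak, against 85.1%, 86.2%, 86.5% and 85.1% of tiles. A peak was present in all 4 libraries at 809 inside genes and 559 outside genes. Only 112 genes had none in any library, and 69 of these belonged to 1 cluster, in Sfmbt2. Of the 119 genes of that cluster 21, 24, 34 and 25 had a peak in the 4 libraries. Without this cluster the share of inside genes with a peak was above that of the tiles in every library.

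The comparison of genotypes asks whether the lack of HDAC7 altered 5-hmC at either class of miRNA gene. In the inside class HDAC7-deficient libraries had 0.928 ± 0.090 times the wild-type peak bases (ratio of means with propagated SD, n = 2 libraries each, two-sided exact permutation test, p = 0.667), and in the outside class 0.978 ± 0.096 times (exact permutation p = 0.667). In both classes the genotypes overlapped. Peaks per gene gave 0.979 ± 0.100 inside and 1.00 ± 0.059 outside, and genes with a peak gave 0.998 ± 0.043 and 1.01 ± 0.018. The difference between the classes in the genotype effect was -0.07 ± 0.07 on the log2 scale (exact permutation p = 0.333). With 2 libraries against 2 no permutation p can be lower than 0.333, so these tests could not pass a threshold of 0.05. On chromosomes 1 to 13, without those on which HDAC7-deficient replicate 2 stood apart, the ratios of peak bases were 0.912 ± 0.086 and 0.950 ± 0.101. All known bases of these chromosomes were covered for 10.1% on average in wild-type and 9.77% in HDAC7-deficient libraries.

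For single genes, windows were sought in which both HDAC7-deficient libraries had more, or both fewer, peak bases than both wild-type libraries. Inside coding genes 149 of 1215 windows (12.3%) were higher without overlap, against a background of 14% of all 4090-bp tiles inside coding genes, and 194 (16%) were lower, against 15.7%. Outside, 107 of 829 (12.9%) were higher, against 14%, and 122 (14.7%) were lower, against 14.7%. All 4 shares were thus near the background of their class.

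Within the inside class, windows of genes on the host strand carried more 5-hmC than those of genes on the opposite strand. They were covered for 10.2%, 11.4%, 9.91% and 10.2% against 8.96%, 10.9%, 8.78% and 9.69%, a ratio of 1.09 ± 0.050 that was above 1 in 4 of 4 libraries (exact sign-flip permutation p = 0.125, the lowest that 4 libraries allow). Without the Sfmbt2 cluster it was 1.11 ± 0.052. Genes that touched an exon of the host gave 1.03 ± 0.037 times the density of those in introns, above 1 in 3 of 4 libraries (exact sign-flip permutation p = 0.25). Genes with a Mir symbol had 1.09 ± 0.048 times the density of the other genes inside, in 4 of 4 libraries, and 0.948 ± 0.060 times outside, lower in 4 of 4 (exact sign-flip permutation p = 0.125 for both). Outside miRNA genes that lay in a long noncoding RNA gene gave 1.01 ± 0.071 times the density of the others. In all, 37 such contrasts between kinds of miRNA gene, hosts and hairpins were computed, many of them overlapping, and none could pass a threshold of 0.05, the lowest adjusted p (Benjamini-Hochberg, from the exact permutation tests) being 0.154.

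The hairpins themselves were poorer in 5-hmC peaks than the DNA beside them. Inside coding genes peaks covered 5.82%, 6.93%, 5.80% and 6.30% of the annotated hairpin bases, against 9.38%, 10.6%, 9.06% and 9.58% of the bases 400 to 2000 bp from the gene's midpoint. This was 0.643 ± 0.016 times the flanks, lower in 4 of 4 libraries (exact sign-flip permutation p = 0.125). Outside coding genes the ratio over all hairpins was 0.895 ± 0.102, lower in 3 of 4 libraries (exact sign-flip permutation p = 0.25). A peak touched the hairpin of 117, 125, 128 and 111 of the 1215 inside genes (9.63%, 10.3%, 10.5% and 9.14%), whereas peaks touched 13.8%, 15.3%, 13.9% and 14.7% of all tiles of the median hairpin length, 90 bp, inside coding genes. Outside, 103, 117, 89 and 113 of 829 hairpins (12.4%, 14.1%, 10.7% and 13.6%) were touched, against 13.6%, 15.2%, 13.9% and 15% of the tiles. Hairpin and tile shares are set side by side without a test.

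Divided by symbol, the lower level at the hairpin was seen in both classes. Hairpins of genes with a Mir symbol had 0.585 ± 0.038 times the density of their flanks inside coding genes (5.47%, 6.06%, 5.81% and 5.99% of hairpin bases) and 0.598 ± 0.077 times outside (5.25%, 6.99%, 4.70% and 5.24%). The other genes gave 0.737 ± 0.059 inside and 1.04 ± 0.151 outside, where the 4 libraries were split evenly (8.95%, 10.8%, 8.80% and 13.1%). All but the last were lower in 4 of 4 libraries (exact sign-flip permutation p = 0.125 each, and p = 0.75 for the last). The hairpins that touched host exons had 0.480 ± 0.085 times, and those in introns, without the Sfmbt2 cluster, 0.730 ± 0.040 times the density of their flanks. CpG content ran the other way, since the 400 bp around the midpoint of Mir genes held 22.6 CpG per kb inside and 23.3 outside, against 15.1 and 13.8 in the flanks. Around the outside genes with another symbol the central 400 bp was 57.3% soft-masked, against 12.5% around outside Mir genes. The part of masked sequence, and of reads that map to several places, in these differences was not tested.

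**Figure D2:**
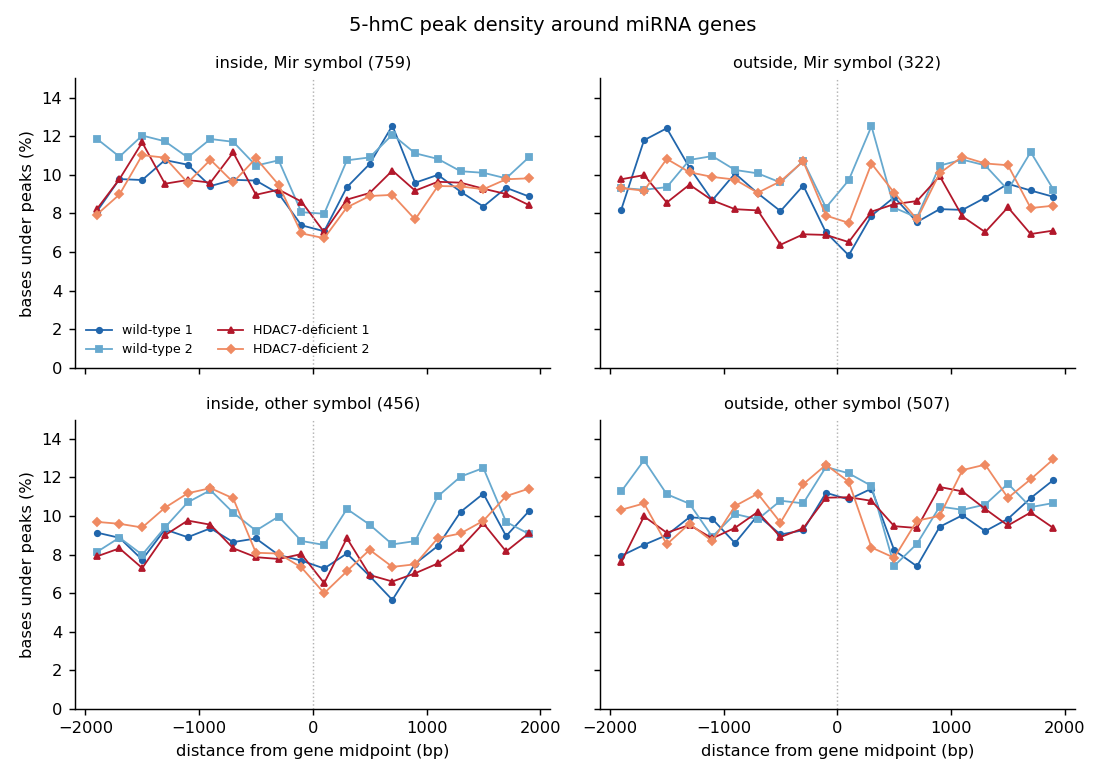
Percent of bases under peaks (vertical axis) in bins of 200 bp by distance from the gene midpoint (horizontal axis, bp, oriented by the strand of the miRNA gene), for each library and 4 kinds of miRNA gene, with the number of genes in each title. Inside genes with a Mir symbol dip to between 6.72% and 8.61% in the 2 central bins in all libraries, and outside genes with another symbol stand at 10.9% to 12.7% there.

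A hairpin under a peak in all 4 libraries was rare, with 16 inside genes (1.32%) against 2.52% of tiles, and 22 outside genes (2.65%) against 2.68%. The 5 most covered were Gm22427, Mir3971, Gm24466, Mir6944 and Mir466f-4. Mir3971, in an intron of the amino acid transporter gene Slc43a2, had all 83 bases of its hairpin covered in every library, and Mir6944, in an intron of Dbn1, which encodes the actin-binding protein drebrin, all 96. A hairpin peak shared by both HDAC7-deficient libraries and absent from wild-type was found at 17 inside genes (1.40%, against 1.25% of tiles) and 4 outside genes (0.483%, against 1.27%). The reverse was found at 8 inside genes (0.658%, against 1.15%) and 11 outside genes (1.33%, against 1.08%).

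The order of the classes changed with CpG content. The windows were divided into 4 equal groups at 7.50, 10.8 and 16.7 CpG per kb. Inside coding genes the poorest group was covered for 7.85%, 8.76%, 7.25% and 9.06% and the richest for 11.1%, 12.2%, 10.6% and 11.1%. Outside, the poorest group stood at 9.82%, 10.1%, 9.78% and 10.5% and the richest at 9.69%, 10.1%, 8.92% and 9.37%. The inside density was therefore 0.818 ± 0.059 times the outside density in the poorest group and 1.18 ± 0.029 times in the richest, each in 4 of 4 libraries (exact sign-flip permutation p = 0.125 for both). Without the Sfmbt2 cluster the first ratio was 0.827 ± 0.061, again lower in 4 of 4. Over all tiles with the same CpG limits, the poorest were covered for 9.08%, 10.6%, 9.09% and 10.9% and the richest for 9.92%, 10.9%, 9.58% and 9.77%.

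**Figure D3:**
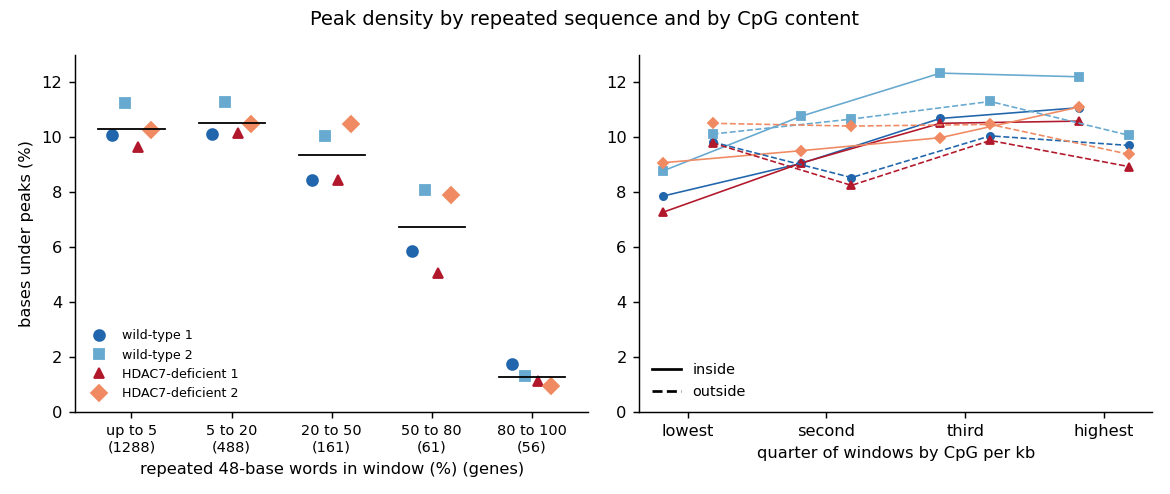
Percent of bases under peaks in miRNA windows (vertical axes) by the share of 48-base words that occur elsewhere on the autosomes (left, number of genes in brackets, bars for the mean of 4 libraries) and by 4 groups of CpG content (right, solid lines inside and dashed lines outside coding genes, with the colours and markers of the left panel for the libraries). Density falls to 0.935% to 1.73% in windows with over 80% repeated words, and from the CpG-poorest to the richest group it is higher in every library inside and lower in every library outside coding genes.

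The 4 peak lists were least dense where the reference sequence is repeated. The share of 48-base words that occur more than once on the autosomes was computed for each window. The 1288 windows with at most 5% such words were covered for 10.1%, 11.2%, 9.65% and 10.2%, and the 56 windows with over 80% for 1.73%, 1.29%, 1.11% and 0.935%. Of those 56 genes 36 belonged to the Sfmbt2 cluster.

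Neighbouring miRNA genes less than 10 kb apart formed 133 clusters with 487 genes, of which 103 were pairs, and 1567 genes were single. Clustered genes had a smaller share of window bases under peaks than single genes, at 8.68%, 9.43%, 8.14% and 9.18% against 9.94%, 11.2%, 9.69% and 10.3%. The ratio was 0.861 ± 0.024, below 1 in 4 of 4 libraries (exact sign-flip permutation p = 0.125). The 3 clusters of 16 or more genes together gave 0.636 ± 0.052 times the single genes and the smaller clusters 0.894 ± 0.025 times, both below 1 in every library. Of the 3, those in Sfmbt2 and Mirg lay below the single genes in every library, and Mir770 to Mir136 lay above them. Between genotypes all clustered genes gave 0.956 ± 0.098 (exact permutation p = 0.667). In 20 clusters (15%) both HDAC7-deficient libraries were higher and in 22 (16.5%) both were lower, beside 14% and 15.2% of all 4090-bp tiles, which are shorter than most cluster windows.

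**Figure D4:**
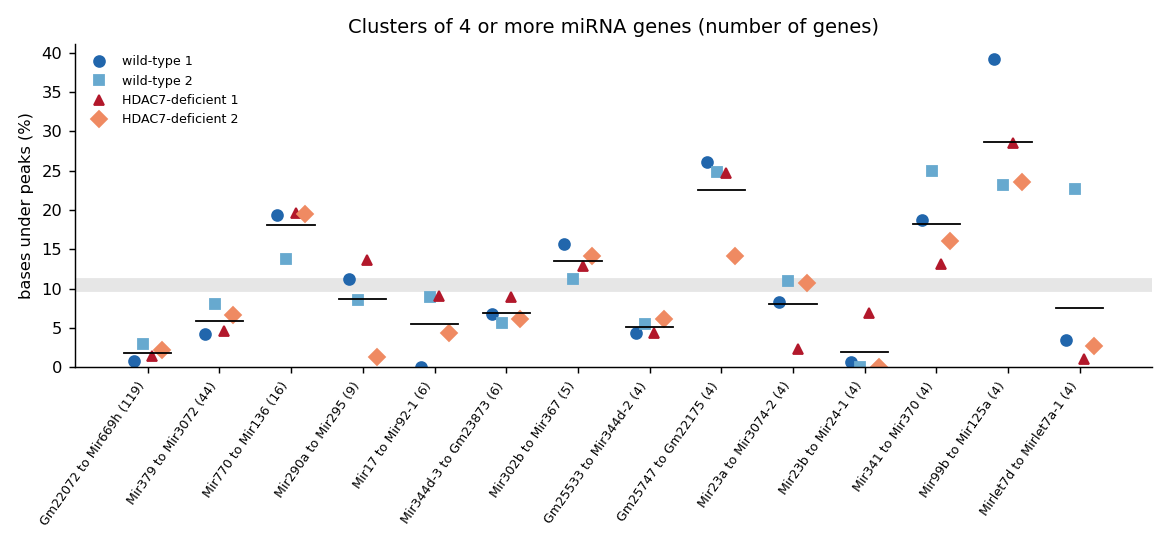
Percent of window bases under peaks (vertical axis) in each library for the 14 clusters of at least 4 miRNA genes, named by their first and last gene with the number of genes in brackets. Points are libraries, black bars their mean, and the grey band the range of single genes (9.69% to 11.2%). The cluster in Sfmbt2 has the lowest mean, by a small margin. The Mir23b to Mir24-1 cluster lies below it in every library except HDAC7-deficient 1. The Mirg cluster from Mir379 to Mir3072 lies below the band, and the clusters of Mir99b, Gm25747, Mir341 and Mir770 above it.

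The largest cluster was in Sfmbt2, a Polycomb-group gene that is imprinted in the placenta and carries a rodent-specific array of miR-466, miR-467, miR-669 and miR-297 genes in an intron. Its 119 miRNA genes lay at chr2:10465287-10518279 and had only 3, 7, 5 and 5 peaks in 56993 bp of windows, or 0.753%, 2.89%, 1.38% and 2.22% of the bases. The rest of the Sfmbt2 gene was covered for 6.94%, 8.31%, 7.53% and 8.36%. In the cluster 69 of 119 genes had no peak in any library, including all 36 whose windows held over 80% repeated words. Of the 10 genes whose windows held at most 5%, 2, 2, 6 and 5 had a peak. None of the 119 genes matched a RefSeq mature entry by position. Without this cluster the inside windows stood at 10.1%, 11.4%, 9.74% and 10.2%.

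The next 2 clusters by size belong to the imprinted Dlk1-Dio3 domain of chromosome 12, whose miRNAs are expressed from the maternal chromosome as parts of the noncoding transcripts Meg3, Rian and Mirg. The Mirg stretch was less covered than the other 2 in every library, and those 2 overlapped. None of the 3 stretches was repeated, with a mean of at most 2.86% repeated words. The 44 genes of the Mirg stretch (Mir379 to Mir3072, chr12:109709060-109747960) were covered for 4.26%, 8.06%, 4.56% and 6.60%. Below the density of single genes in all 4 libraries, they included 12 genes with no peak in any. The 16 genes of the Meg3 and Rtl1 stretch (Mir770 to Mir136, chr12:109563692-109595397) were covered for 19.4%, 13.8%, 19.6% and 19.5%, above the single genes in every library. The 4 genes of the Rian stretch (Mir341 to Mir370, chr12:109611500-109618336) were covered for 18.8%, 25%, 13.1% and 16%. Both HDAC7-deficient libraries were above both wild-type libraries in the Meg3 and Rtl1 stretch, by less than the gap between the wild-type libraries, and below them in the Rian stretch. CpG content was alike, at 16 per kb on average in Mirg windows, 18.1 in Meg3 and Rtl1 windows and 17.4 in Rian windows. Over the 65 miRNA genes of the domain the levels evened out to 10.4%, 11.3%, 10.3% and 11.4%.

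Among the other clusters, that of Mir290a to Mir295, which marks pluripotent cells, was covered for 11.2%, 8.56%, 13.7% and 1.29%, with HDAC7-deficient replicate 2 far below the rest. The Mir302b to Mir367 cluster, also of pluripotent cells, lay antisense to an intron of Larp7 and stood at 15.7%, 11.2%, 12.9% and 14.1%. In the Mir17 to Mir92-1 cluster, known as an oncogenic cluster that B-cell progenitors need, the values were 0%, 8.87%, 9.0% and 4.28%, and wild-type replicate 1 had no peak at all. The Mir344d-3 to Gm23873 cluster, of the same number of genes, stood at 6.81%, 5.63%, 8.97% and 6.16%, below the single genes in every library.

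A cluster of 4 predicted genes lay in the immunoglobulin heavy chain locus. Gm25747, the 2 genes named Gm24022, and Gm22175 (chr12:113424645-113425227) sat 3286 bases from Ighj4, a joining segment, and 1914 bases from Ighm, the constant gene of IgM. In B cells this interval holds the intronic enhancer and the switch repeats of the mu chain, and it is kept next to the rearranged variable gene. Peaks covered 26.1%, 24.9%, 24.8% and 14.2% of its windows, in 8, 8, 6 and 4 peaks, although they held only 6.75 CpG per kb. All libraries were above the single genes. The HDAC7-deficient libraries were the lower ones, the first by less than the gap between the wild-type libraries and the second by more. Immunoglobulin genes are not of type protein-coding in the annotation, so these genes counted as outside, and the locus was described after its values had been seen.

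The copies of duplicated miRNA families were set side by side. Where copies make an identical mature miRNA, their values over the 4 libraries overlapped, except between Mir124a-2 and Mir124a-3. The Mir99b, Mirlet7e and Mir125a trio, whose counterpart shares its seeds but not its whole mature sequences, in Spaca6 at chr17:17830188-17830879, was the most covered family locus, with 1838, 1090, 1339 and 1108 peak bases in 4692 bp (39.2%, 23.2%, 28.5% and 23.6%). Its counterpart Mir99a and Mirlet7c-1, antisense to an intron of Gm11146 at chr16:77598936-77599750, had 443, 0, 394 and 465 peak bases in 4815 bp (9.20%, 0%, 8.18% and 9.66%). Every library of the first locus lay above every library of the second. Mir125b-2, in the same noncoding transcript Mir99ahg at chr16:77646273-77646343, had 810, 678, 145 and 257 peak bases, lower in both HDAC7-deficient libraries but overlapping within 10000 bp (1501, 1736, 837 and 1961), and Mir125b-1 at chr9:41581926-41582002 had 471, 36, 260 and 0. Thus miR-125b-5p, a miRNA of stem and myeloid cells, came from 2 loci outside coding genes, of which the first carried more peak bases in 3 of 4 libraries.

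**Figure D5:**
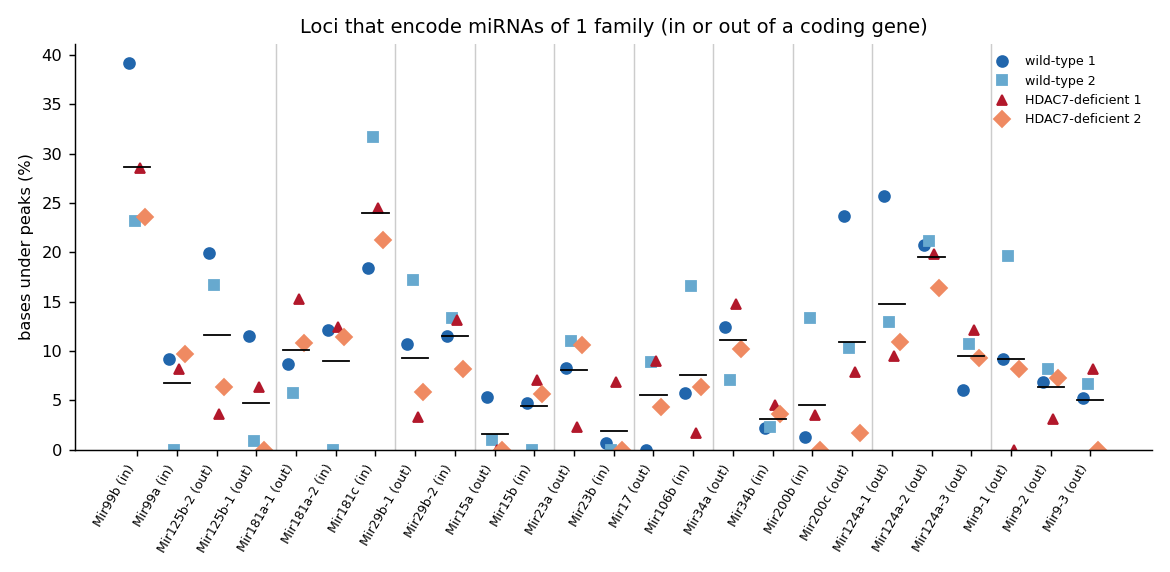
Percent of window bases under peaks (vertical axis) in each library at 25 loci of 10 duplicated miRNA families, divided by vertical lines, with in or out for loci inside or outside a coding gene. Points are libraries and bars their mean. The Mir99b and Mir181c loci stand above the other members of their families in every library, and many loci have at least 1 library at 0.

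The miR-181 family, which acts in lymphoid differentiation, was covered most at Mir181c and Mir181d, in an intron of the germ-cell gene Nanos3 (chr8:84178716-84178961), with 780, 1348, 1041 and 903 peak bases. Mir181a-1 and Mir181b-1, outside coding genes at chr1:137966455-137966718, had 368, 245, 651 and 463, and both HDAC7-deficient libraries were higher. Mir181a-2 and Mir181b-2, antisense to an intron of the nuclear receptor gene Nr6a1 (chr2:38852735-38853918), had 631, 0, 644 and 594 over their joint window, where wild-type replicate 2 alone had no peak. The genotypes overlapped at the Mir181a-1 locus when it was widened, since within 10000 bp it had 1747, 1541, 1162 and 1613 peak bases.

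In miR-15 and miR-16, which restrain the cell cycle, the 2 loci differed in direction within 2000 bp, but not in wider windows. Mir15a and Mir16-1, in the noncoding gene Dleu2 (chr14:61631880-61632110), had 225, 42, 0 and 0 peak bases, with none in HDAC7-deficient libraries. Mir15b and Mir16-2, in an intron of the condensin gene Smc4 (chr3:69009772-69009996), had 200, 0, 300 and 239, higher in both. Each rested on 0 to 2 peaks in a library. Within 10000 bp the genotypes overlapped at both, with 1220, 1523, 1128 and 1908 at the first locus and 1285, 2058, 1753 and 1125 at the second. In miR-29, linked to DNA methylation through its targets among the DNA methyltransferases, Mir29b-1 and Mir29a (chr6:31062660-31063093) had 473, 762, 147 and 260 peak bases, lower in both HDAC7-deficient libraries, and remained so within 10000 bp, with 1528, 2152, 987 and 1333 around the pair. Mir29b-2 and Mir29c, opposite in strand to Cd46 (chr1:195037040-195037634), had 530, 615, 602 and 377, and the genotypes overlapped.

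Mir23a, Mir27a and Mir24-2, outside coding genes, had 363, 483, 100 and 469 peak bases, whereas Mir23b, Mir27b and Mir24-1, in 2010111I01Rik, had 34, 0, 328 and 0. Mir106b, Mir93 and Mir25, in the replication gene Mcm7, had 259, 746, 75 and 286 against 0, 429, 435 and 207 at the Mir17 cluster. Mir34a, a target of p53 outside coding genes, had 510, 289, 605 and 417, and Mir34b and Mir34c, antisense to Btg4, had 100, 106, 207 and 168. Of the epithelial miR-200 loci, Mir141 and Mir200c, outside coding genes, had 1059, 460, 354 and 76, lower in HDAC7-deficient libraries but overlapping within 10000 bp (4563, 2835, 3545 and 2419), and the locus in Ttll10 had 72, 779, 204 and 0. Of the neuronal miR-124 loci, Mir124a-2 had 851, 869, 814 and 673, against 1049, 530, 386 and 447 at Mir124a-1 and 246, 435, 494 and 377 at Mir124a-3. The 3 loci of miR-9, also of neural cells, overlapped, with 376, 801, 0 and 334 at Mir9-1, 279, 332, 125 and 294 at Mir9-2 and 213, 273, 336 and 0 at Mir9-3.

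Of 24 miRNA genes listed for blood and lymphoid cells 23 were found, 10 inside and 13 outside coding genes, at 16 separate loci. Without overlap 9 genes (at 6 loci) were higher and 4 genes (at 2 loci) were lower in HDAC7-deficient libraries, beside 14% and 15.2% of all tiles. A locus was counted where at least 1 of its listed gene windows met the rule. Over the joint window of Mir181a-2 and Mir181b-2, among the 6, the genotypes overlapped. Of the higher genes, Mir142, Mir155 and Mir191 were each the only listed gene of their locus. Mir142, at chr11:87756864-87756927 in the noncoding gene Mir142hg, had 294, 96, 946 and 345 peak bases. It remained higher within 500 bp and within 10000 bp (2162, 2833, 3972 and 2952). Mir155, at chr16:84714140-84714204 in Mir155hg, a miRNA of activated B cells, had 13, 0, 106 and 460, and within 10000 bp 1147, 1375, 1448 and 2548. It lies on chromosome 16, among the chromosomes over which HDAC7-deficient replicate 2 was denser. Mir191, at chr9:108568319-108568392, had 335, 0, 560 and 412, but within 10000 bp it was lower in both HDAC7-deficient libraries, at 2270, 2306, 1857 and 2184. Of the 9 higher genes 1 was also higher with 500 bp and 2 with 10000 bp on each side, and 4 when peaks under 200 bp were dropped. Mir150, the miRNA of mature lymphocytes, had 83, 742, 360 and 357, with the genotypes overlapping. Mir146b, in an intron of Mfsd13a, had 753, 674, 694 and 142.

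The other lists were tallied in the same way. Of 21 myeloid and stem cell genes, 0 were higher and 2 were lower, namely Mir125b-2 and Mir10a (649, 702, 369 and 580 peak bases). Within 10000 bp the genotypes overlapped at both. Of 11 proliferation genes 2 were higher, Mir34b and Mir34c at 1 locus, and 0 lower, and neither gene was higher within 500 bp or within 10000 bp. Of 33 genes of other tissues 0 were higher and 5 were lower, Mir124a-1, Mir124a-2, Mir9-1, Mir141 and Mir200c, at 4 loci. Of these 5 genes 1 was also lower with 500 bp and 3 with 10000 bp on each side. The tally of the 33 genes changed with the window, to 7 higher and 2 lower with 500 bp. With 10000 bp it was 0 higher and 10 lower. The genes that the study itself named were chosen in view of these samples and are therefore not independent evidence. Of these 12 genes 3 were higher (Mir142, Mir181a-1 and Mir181a-2) and 2 lower (Mir125b-2 and Mir29b-1). Of the 3 higher genes 1 was also higher with 500 bp and 1 with 10000 bp on each side. Of the 2 lower genes 0 were also lower with 500 bp and 1 with 10000 bp. The paper reports the opposite direction of the mark for the miRNAs of both lower genes and of both Mir181a genes. Its measure was the enrichment of reads, and its text does not name the gene copy, whereas bases under peaks were counted here. The 2 directions are therefore not a like comparison. At the other copies, Mir125b-1 and Mir29b-2, the genotypes overlapped. For the miRNA of Mir142 the paper reports lower expression. Over all 2054 genes 257 were higher and 317 lower. The lists differ from one another by a few loci, and whether their shares differed was not tested.

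Inside coding genes the windows with the most 5-hmC were those of Mir3971, Mir5104, Mir6944, Gm24303 and Gm24572. Mir3971 had 1176, 1926, 1975 and 1651 peak bases. Mir5104, in an intron of the immune regulator gene Zc3h12d, had 2066, 1829, 1635 and 1022, and both HDAC7-deficient libraries were lower. Mir6944 had 1609, 1722, 1485 and 1550, also lower in both. Gm24303, in an intron of Rbm28 at chr6:29150554-29150679, had 1631, 1302, 1696 and 1661, slightly higher in both. Gm24572, with 1494, 1643, 1496 and 1460, lay in a UTR of Dgcr8, the gene of the partner of Drosha that recognises miRNA hairpins. Outside coding genes Mir675 was highest, with 1362, 1885, 938 and 1714. Mir327 had 1309, 862, 1769 and 1038. Mir1946a had 989, 1259, 1065 and 1384, and Mir337 had 1393, 1034, 784 and 1512. The genotypes overlapped at these 4. Gm24543 had 713, 635, 1205 and 2294 and lies on chromosome 19, again among the chromosomes over which HDAC7-deficient replicate 2 was denser. Mir675 (chr7:142577064-142577147) is cut from the first exon of the imprinted noncoding RNA H19 and Mir337 is in the Meg3 and Rtl1 stretch. The Mirg stretch of the same imprinted domain as Mir337 lay below the single genes in every library.

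Large gaps between the genotypes inside coding genes were at Gm25991 in Arhgap44 (761, 613, 1747 and 1515 peak bases) and Mir467g antisense to Grk4 (248, 379, 877 and 953), both higher in HDAC7-deficient libraries. Lower were Gm44324 in Unc79 (1309, 1472, 792 and 776), Mir3100 in the myotonic dystrophy kinase gene Dmpk (1268, 1322, 802 and 739) and Gm22518 in Shb (1473, 915, 248 and 453). Outside, Gm24932 (0, 19, 529 and 840), Gm24567 (492, 52, 999 and 995) and Gm24543 were higher. Mir3089 (934, 1129, 372 and 84), Mir190b (732, 754, 119 and 240) and Gm24933 (781, 784, 142 and 184) were lower. At all of these the genotypes were apart in every library, which is how they were chosen, and 12.3% to 16% of the genes of each class met that rule in each direction. No genes of the blood list were among them.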

How the data were processed

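The authors trimmed reads, removed duplicates, normalised the signal with deepTools and called peaks in each library with MACS2 (cutoff 250, minimum length 10 bp), leaving out peaks met by input peaks. Per the labels the tools were Trim Galore 0.4.2, cutadapt 1.6 and Bowtie2 with build mm10 (the methods name bwa). The deposited values are peak positions alone, without height, score or count. The 4 input samples were not analysed here. Peak bases and peaks sharing at least 1 bp with a window were counted with Python 3.11.15 and NumPy 2.4.6 on merged windows. Genotypes were compared with exact permutation tests and contrasts within libraries with exact sign-flip tests, both two-sided. Ratios between genotypes carry propagated SDs. Background tiles had the median window (4090 bp) or hairpin (90 bp) length. The interval code was tested on simulated data. Members and lists were chosen with earlier results of these data known. The named genes were the listed ones, the 5 highest per class, the 3 largest gaps per class and direction, the 5 largest clusters (a tie for the last place kept both), clusters with a listed gene and the 5 most covered hairpins. 1 gene that met this rule is not reported here. Duplicated families and the contrasts between kinds of gene were added after values had been seen. Alternatives were other flanks, peak widths, merging, midpoints, chromosomes, scaling, class and cluster rules and left-out libraries.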

Additional observations from a re-analysis of the deposited data

How the results depend on the processing

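Of 290 values recomputed under alternatives, 244 kept their direction and size, 26 changed direction and 20 were counts that moved by over 1.5 times. In none of them was a p below 0.05 reached.

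With 500 bp on each side the ratio of inside to outside density turned to 0.910 and that of inside windows to all coding bodies to 0.913, both below 1 in all 4 libraries. Windows of that width hold mostly the hairpin and its near flanks. The outside genotype ratios became 0.989 (peaks per gene) and 0.998 (genes with a peak), and the genes without overlap fell to 87 higher and 111 lower inside and 64 higher outside. With 10000 bp the ratio of outside windows to their surroundings became 1.01, and genes with a peak inside 1.01. The outside ratio of peaks per gene was 0.967 with peaks of at least 200 bp, 0.998 with merged peaks, 0.988 on chromosomes 1 to 13, 0.981 after scaling, and 0.991 in windows with at most 10% repeated words. There outside windows stood at 1.02 times their surroundings. Genes with a peak inside gave 1.00 on chromosomes 1 to 13, outside hairpins with another symbol gave 0.943 there, and inside genes higher without overlap numbered 97 with wide peaks. Leaving out the Sfmbt2 cluster changed no direction among the recomputed values. That setting, the limit on repeated words and all alternatives for hairpins were chosen after seeing the data.

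Leaving out each library in turn, the genotype ratio of peak bases ran from 0.871 to 0.992 inside, 0.928 to 1.03 outside and 0.899 to 1.01 in clusters. Peaks per gene ran from 0.912 to 1.05 inside and 0.973 to 1.03 outside, and genes with a peak from 0.968 to 1.03 and 0.999 to 1.02. Genes without overlap rose to 303 to 342 higher and 350 to 461 lower inside, and 208 to 271 higher and 223 to 320 lower outside. With 1 library on a side more windows cannot overlap, so these counts rise by construction. The other ranges were 1.01 to 1.05 for inside over outside, 0.851 to 0.867 for clustered over single genes, 0.638 to 0.650 and 0.854 to 0.926 for inside and outside hairpins, and 0.971 (without HDAC7-deficient replicate 2) to 1.08 for outside hairpins with another symbol.

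With the replicate number as a block the genotype ratios of peak bases were 0.929 inside and 0.977 outside (exact sign-flip permutation p = 0.5 for both, the lowest that 2 pairs allow), and the block changed no direction. Same-numbered libraries deviated together only weakly (r = 0.077 over miRNA windows), but a weak correlation over noisy windows cannot show that they were unpaired. The first replicates of the 2 genotypes were the most alike in peak bases (r = 0.69). Whether same-numbered libraries were prepared together is not known. No depth is known, so no counting error could be given.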
